A study of Homo sapiens with 23 samples.

Results

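Y234C is a missense mutant of the tumour suppressor p53, and the regions described here are the places in the genome where V5-tagged Y234C was called as bound while V5-tagged wild-type p53 was not. A member is a distinct region of the Y234C ChIP-seq peak list, on chromosomes 1 to 22 or X of GRCh38, that shares not even 1 bp with a region of the WTOE list. Of 1551 Y234C regions on these chromosomes, 1053 (67.9%) were members and 498 overlapped WTOE. The 5 peak lists together held 34819 regions, of which 21530 came from R273H, 10228 from WTOE, 1160 from Y220C and 350 from R273C. Members were chosen by the peak calls of these same libraries (a MACS2 q under 0.05 in Y234C and no call in WTOE), so the absence of WTOE from these sites is the rule itself and not a result.

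The study introduced p53 proteins into MCF10A, a non-transformed human mammary epithelial line, and compared their RNA, their chromatin binding and their cell behaviour. The Y234C line stably expressed p53 Y234C with a V5 tag at its C-terminus from the lentiviral vector pLenti4/V5-DEST. WTOE stably expressed V5-tagged wild-type p53 from another lentiviral vector, pLX304, so that mutation and vector cannot be told apart. Both lines, like the Y220C, R273C and R273H lines, kept their native wild-type p53, were untreated, and gave 1 V5 library and 1 input DNA library each. RNA came from these 5 lines, from the V5-tagged mutants H179R, G245S, R175H, Y163C, R248Q and R248W made in the same way as Y234C, from WT, the parental cells with untagged native p53, and from WTKD, in which native p53 was knocked down by shRNA. By the study's account, Y234C was the mutant whose p53 protein was not raised on blots. No replicate library existed for any line, so no difference between peak lists carries a test of replicate error, and all region counts below are descriptions of these libraries. The samples held no V5 library of untagged WT cells.

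p53 binds DNA as a tetramer through a pair of decamers, each with a core of C, A or T, A or T, and G, and switches on genes such as CDKN1A and MDM2 that halt the cell cycle or limit p53 itself. The altered tyrosine lies in the DNA-binding domain but does not touch DNA, and its loss belongs to the structural class of p53 mutations, which affect the fold. Mutant p53 can still reach chromatin without its own motif, through other transcription factors or through open, GC-rich DNA.

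Windows of 300 bp around the summit of 6 members show what kinds of sequence the list held. Capitals mark the GC box (GGGCGG, or CCGCCC where it lies on the other strand) in all but 1 of the windows, where they mark the p53 decamer. The first was the member with the highest −log10 q, and it was shown because it was rich in a 5-base unit known from human satellite DNA, with 15 copies of ATTCC and 13 of ATTCG, both strands counted.
Highest −log10 q, chr1:143255581-143255880, plus strand: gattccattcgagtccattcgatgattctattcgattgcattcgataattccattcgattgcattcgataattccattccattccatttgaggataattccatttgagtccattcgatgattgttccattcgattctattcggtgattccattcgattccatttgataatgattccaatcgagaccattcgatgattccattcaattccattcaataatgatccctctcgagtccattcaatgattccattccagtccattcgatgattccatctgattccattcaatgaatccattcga
The next was the strongest member found in no other mutant's list, and it was shown because it was a tandem repeat with a period of 83 bases, in which 98.2% of bases equalled the base 1 period further on.
Strongest in no other mutant list, chr17:201495-201794, plus strand: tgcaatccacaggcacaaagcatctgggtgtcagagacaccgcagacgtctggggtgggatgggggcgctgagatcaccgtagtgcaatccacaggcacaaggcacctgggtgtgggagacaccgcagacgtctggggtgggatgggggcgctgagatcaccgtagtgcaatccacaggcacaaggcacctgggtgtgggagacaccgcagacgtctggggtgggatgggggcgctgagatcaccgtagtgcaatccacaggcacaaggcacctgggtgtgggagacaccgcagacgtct
The strongest member that also had a single place in the genome lay in an intron of AHRR, which encodes the repressor of the aryl hydrocarbon receptor, and it repeated every 34 bases with 5 GC boxes.
AHRR intron, chr5:415425-415724, plus strand: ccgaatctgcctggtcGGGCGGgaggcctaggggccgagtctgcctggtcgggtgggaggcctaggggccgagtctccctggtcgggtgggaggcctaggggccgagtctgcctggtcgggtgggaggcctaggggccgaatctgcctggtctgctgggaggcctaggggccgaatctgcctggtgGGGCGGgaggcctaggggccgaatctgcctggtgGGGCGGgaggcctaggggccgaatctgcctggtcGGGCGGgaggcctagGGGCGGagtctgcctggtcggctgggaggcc
The member with the lowest GC was shown as the opposite extreme, with 16% GC and no CG dinucleotide.
Lowest GC, chr11:122017451-122017750, plus strand: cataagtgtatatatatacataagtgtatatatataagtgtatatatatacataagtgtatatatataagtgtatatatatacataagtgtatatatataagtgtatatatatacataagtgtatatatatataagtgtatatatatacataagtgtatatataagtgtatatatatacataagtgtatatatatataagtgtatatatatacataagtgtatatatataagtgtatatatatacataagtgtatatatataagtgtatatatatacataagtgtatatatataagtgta
The strongest member with a p53 decamer and a single place in the genome stood in the promoter of the gene ENSG00000267232.
Strongest with a decamer, chr19:1873172-1873471, plus strand: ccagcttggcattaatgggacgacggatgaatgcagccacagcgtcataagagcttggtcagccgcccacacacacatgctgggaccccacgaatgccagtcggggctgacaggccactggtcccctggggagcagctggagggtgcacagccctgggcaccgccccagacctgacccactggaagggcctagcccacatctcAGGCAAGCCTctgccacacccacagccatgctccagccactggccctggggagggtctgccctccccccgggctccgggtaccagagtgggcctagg
The AGAP3 window was shown because AGAP3 was the promoter gene whose RNA passed the test below, and it held 26 CG dinucleotides, no GC box and no decamer. Its region lay on coding sequence and counted as promoter through an annotated start site inside the gene.
AGAP3 promoter, chr7:151087092-151087391, plus strand: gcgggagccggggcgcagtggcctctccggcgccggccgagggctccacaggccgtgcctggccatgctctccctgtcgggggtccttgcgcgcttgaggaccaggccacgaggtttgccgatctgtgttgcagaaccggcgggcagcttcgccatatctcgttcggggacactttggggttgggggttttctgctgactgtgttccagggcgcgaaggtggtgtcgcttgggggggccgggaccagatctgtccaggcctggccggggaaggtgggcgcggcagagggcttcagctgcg
The first of these windows had 35 placements in GRCh38 and the second had 2, and each of the others had 1.

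The members were the weak end of the Y234C list. MACS2, the peak caller, gives each region a q value, whose −log10 had a median of 2.67 over members and 4.64 over the regions that overlapped WTOE. A −log10 q of at least 5 was reached by 108 members (10.3%) and by 236 overlapping regions (47.4%), and one of at least 10 by 17 members (1.61%) and 132 overlapping regions (26.5%). Members were also narrower, with a median width of 318 bp against 491.5 bp, and 29 of them (2.75%) had more than 1 summit against 133 (26.7%). A wider region meets a WTOE region more readily, so the rule itself selects for narrow members, and its part in these contrasts was not tested. The fold enrichment over input at the summit was alike, with a median of 3.64 in both sets. The strongest members thus sat well below the strongest overlapping region, at 31.9 against 124 on the −log10 q scale.

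**Figure D1:**
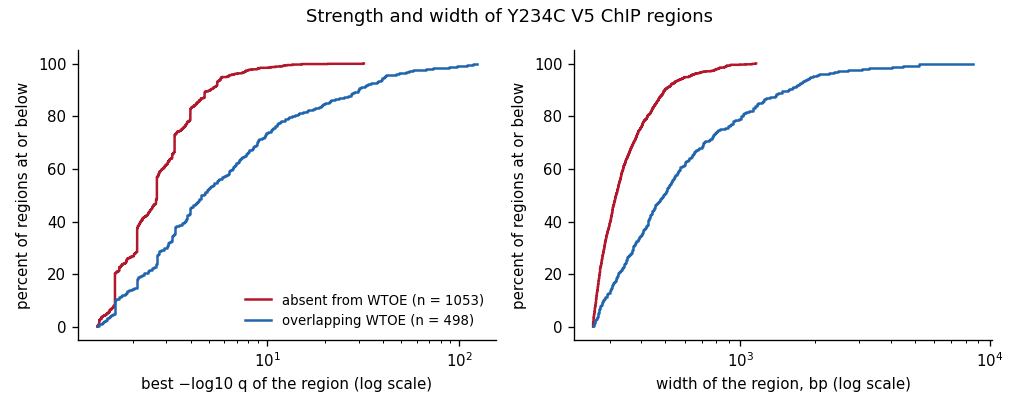
Cumulative share of Y234C regions by best −log10 q (left, log axis) and by width in bp (right, log axis), for the 1053 regions absent from WTOE and the 498 that overlapped it. The curve of the absent regions lies to the left in both panels, with medians of 2.67 against 4.64 and 318 bp against 491.5 bp.

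The small number of fragments behind a member can be read from the deposited values. Where the caller used its genome-wide background, the deposited fold moved in steps of 0.26, 1 step per DNA fragment, which put the genome-wide background of the Y234C library at 2.84 fragments. On this ladder lay 382 members (36.3%), and 360 of them had between 12 and 17 fragments at the summit. The 92 members with 12 fragments had a fold of 3.38 and a median −log10 q of 1.62. The 20 with 17 fragments had a fold of 4.69 and a median −log10 q of 4.74. The WTOE library had a background of 3.55 fragments by the same reading, and the median summit on its ladder had 14 fragments. WTOE signal at the members themselves was not analysed here, so a member may have had WTOE fragments in a number too low for a call.

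The rule's edge divided regions with values of like size. The 3 members closest to WTOE stood 8, 10 and 14 bp from a WTOE region. They were chr1:227506309-227506791 on the pseudogene TUBB8P9 with a −log10 q of 5.10, chr15:40337754-40338295 on an exon of CCDC9B with 2.67, and chr19:50128352-50128654 in an intron of the non-coding gene ENSG00000287001 with 2.15. The 3 Y234C regions with the smallest overlap shared 18, 45 and 46 bp with WTOE and had −log10 q values of 4.0, 1.38 and 1.62. Over all members the nearest WTOE region lay a median of 14252 bp away, with 166 (15.8%) within 1000 bp, 470 (44.6%) within 10000 bp and 804 (76.4%) within 100000 bp.

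Most members were also missing from the other mutants' lists. Of 1053 members, 863 (82.0%) overlapped no region of R273H, Y220C or R273C, against 137 of the 498 overlapping regions (27.5%). The overlapping regions were wider and so meet any list more readily, and the part of width in this contrast was not tested. The share went with strength, at 54.6% of members with a −log10 q of at least 5 and 85.1% of those under 5. R273H, the longest list, shared 168 members (15.95%), Y220C 65 (6.17%) and R273C 27 (2.56%), and 13 members (1.23%) were in all 3. Seen from the other side, members were met by 0.706% of R273H regions, 5.60% of Y220C regions and 7.43% of R273C regions. The lists differ in length and each is 1 library, so these shares rank no mutant as closer to Y234C.

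Whether a member was shared went along with how often its sequence occurs in the genome. The 300 bp around the summit had 1 placement at 95% identity or more in 736 members (69.9%) and 2 or more in 316 (30.0%), against 378 of the overlapping regions (75.9%) and 243 of the same windows shifted by 5000 bp (23.1%). Among the 863 members in no other mutant list, 161 (18.7%) had 2 or more placements, and among the 190 in at least 1 list, 155 (81.6%) did. Of the 736 members placed once, 702 (95.4%) were in no other mutant list. Tandem repeats, counted where 70% of bases in the window equalled the base 1 period of 2 to 100 bases further on, made up 52 members (4.94%), 14 shifted windows (1.33%), 48 overlapping regions (9.64%) and 184 WTOE regions (1.80%). They were 16 of the 108 members with a −log10 q of at least 5 (14.8%). Reads from repeated sequence can be assigned to any of its copies, and the part of this in the shared members was not tested.

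**Figure D2:**
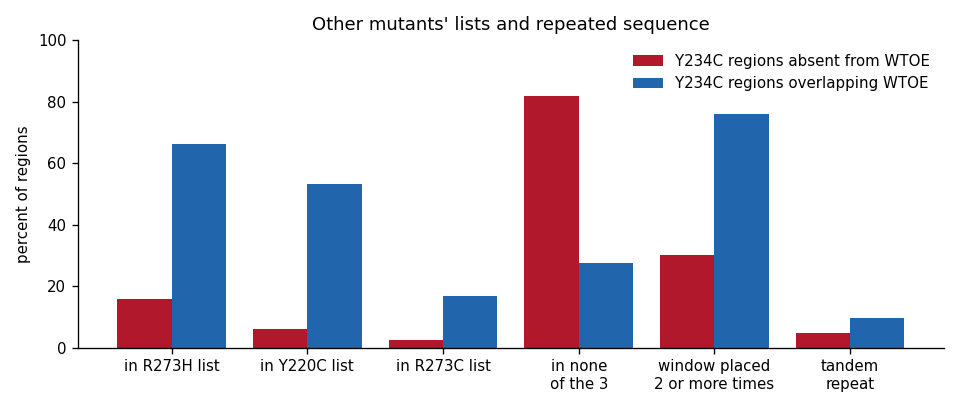
Percent of Y234C regions that overlapped the list of another mutant, that overlapped none of the 3, whose 300 bp summit window had 2 or more placements in GRCh38, or that were tandem repeats, for regions absent from WTOE (red, n = 1053) and overlapping WTOE (blue, n = 498). The absent regions are lower in every class but that of overlapping no other mutant, at 82.0% against 27.5%.

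The 10 members with the highest −log10 q, from 12.2 to 31.9, showed the same mixture, and every one of them was in at least 1 other mutant list. Intergenic sequence of chromosome 1 near the centromere gave 3, chr1:143255526-143255901, chr1:143190385-143190654 and chr1:125166945-125167217, with 10 to 35 placements. Their fold over input was 1.31, 1.31 and 1.53, low beside a median of 3.64 over members. Copies of the ribosomal RNA repeat on chromosome 21, at MIR3648-1 (chr21:8208638-8208960) and MIR3648-2 (chr21:8987137-8987430), had folds of 3.01 and 3.65, a GC of 80.1% and 80.4%, and a WTOE region within 516 and 685 bp. A member in the promoter of a U2 small nuclear RNA gene inside CCDC200 (chr17:43274284-43274676) had the highest fold of all members, 6.86. U2 is a part of the spliceosome, and its genes stand there in a tandem array. The remaining 4 lay at the pseudogenes DUX4L37 and REXO1L8P, on chromosome 4 at chr4:49109527-49109951, and in a non-coding gene on chromosome 19 with 24 placements. Of the 13 members in all 3 other mutant lists, the 5 leading ones had −log10 q values of 15.1, 11.7, 9.27, 5.49 and 3.08. They were chr1:143190385-143190654, an intron of the pseudogene REXO1L9P at chr8:85764472-85764894, chr1:143219771-143220329, chr1:143237516-143237847 and chr21:8228800-8229096, with 2 to 28 placements. Members in no other mutant list had a highest −log10 q of 10.2, and the 5 leading ones lay at chr17:201394-201777, at chr1:144809968-144810291, on the coding sequence of EPPK1, which encodes a scaffold protein of the epithelial keratin network, in AHRR, and at chr9:62799611-62799976.

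Members were crowded on 3 chromosome arms. Chromosome 1 held 307 of them (29.2%), chromosome 5 held 142 (13.5%) and chromosome 8 held 112 (10.6%), which together are 561 (53.3%) on 19.0% of the sequence. Within these chromosomes most members lay in part of the long arms. Past 140 Mb of chromosome 1 lay 281 members, past 130 Mb of chromosome 5 lay 111, and past 110 Mb of chromosome 8 lay 85, so that 45.3% of members fell in 6.45% of the sequence. These boundaries were set after the counts had been seen. The stretch of chromosome 1 began near the centromere and is not confined to the end of the arm. It held 39 members from 140 to 150 Mb and 66 from 220 to 230 Mb. The last 5.14 Mb of chromosome 8, from 140 Mb on, had 68 members or 13.2 per Mb, the most members of any window, whereas 217 of the 316 windows held a member at all.

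WTOE regions shared this crowding, with 36.7% in the same stretches, and so did Y220C with 30.1% and the overlapping Y234C regions with 25.1%. R273H did not, with 3.72%. Chromosome 20 was the exception. It held 1048 WTOE regions (10.2%) but only 8 members (0.760%), on 2.13% of the sequence. Members inside and outside the 3 stretches were alike in −log10 q, with a median of 2.67 in both, in share at promoters, at 31.0% and 30.6%, and in median GC, at 60.1% and 60.5%. They differed in how many were in no other mutant list, 91.8% inside and 73.8% outside, and in how many had several placements, 14.5% and 42.9%. The DNA copy number of these stretches in each line was not analysed here.

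**Figure D3:**
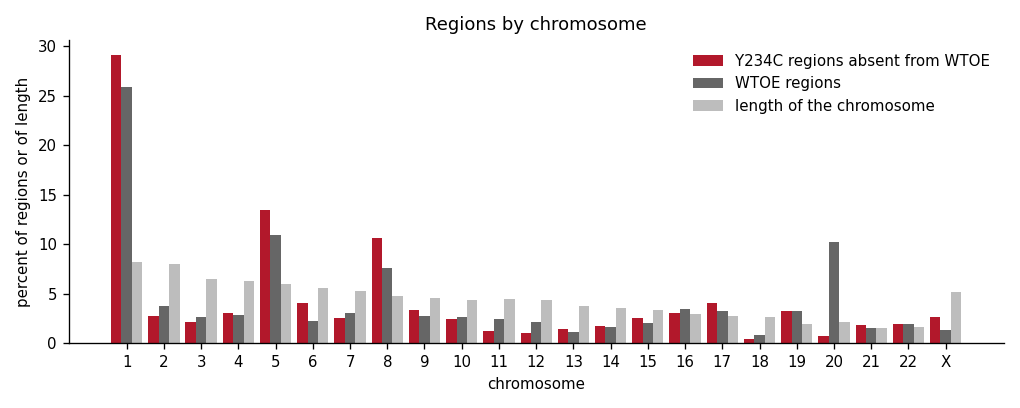
Percent of the 1053 Y234C regions absent from WTOE (red), percent of the 10228 WTOE regions (dark grey) and percent of the sequence length (light grey) on each chromosome. Chromosomes 1, 5 and 8 stand above their length in both lists, and chromosome 20 in that of WTOE alone, at 10.2% against 0.760% of members.

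Members favoured GC-rich sequence, promoters and exons over the same windows shifted by 5000 bp. GC within 150 bp of the summit had a median of 60.5% in members, 47.8% in the same windows shifted by 5000 bp, 53.8% in WTOE regions, 62.1% in the overlapping regions and 39.5% in R273H regions. A GC above 50% was found in 914 members (86.8%) and in 442 shifted windows (42.0%). At a promoter, reaching from 2500 bp before a start site to 100 bp past it, lay 324 members (30.8%), against 237 shifted windows (22.5%), 37.6% of overlapping regions, 22.7% of WTOE regions and 5.54% of R273H regions. Promoter windows cover 8.83% of the sequence. On an exon lay 337 members (32.0%), against 194 shifted windows (18.4%), 34.3% of overlapping regions, 21.4% of WTOE regions and 5.14% of the sequence. Another 409 members (38.8%) were in an intron and 307 (29.2%) between genes. A start site lay within 10000 bp of the summit in 709 members (67.3%) and in 723 shifted windows (68.7%). Y220C regions had a median GC of 56.1%, with 22.8% at a promoter and 21.4% on an exon. Coding sequence was touched by 185 members (17.6%), 8.43% of overlapping regions and 9.91% of WTOE regions. These shares count any overlap of a region, whereas the shares of the sequence count single bases. Where the summit itself had to lie there, the shares were lower, at 20.4% on an exon and 26.2% at a promoter.

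Several motifs were counted in the same windows. The GC box, bound by Sp1 and its relatives, was present within 150 bp of the summit in 377 members (35.8%) and in 32.5% of overlapping regions. It was in 10.9% of shifted windows, 17.1% of WTOE regions and 45.0% of the 35116 RefSeq promoters of GRCh38.p14, which are windows of 300 bp. A set of 4 or more runs of at least 3 G, with 1 to 7 bases between them, was also counted. It was present in 208 members (19.8%), 17.5% of overlapping regions, 8.07% of shifted windows and 25% of promoters. The CCAAT box, searched as CCAAT, went the other way, with 17.9% of members, 29.9% of shifted windows and 34.6% of promoters. The AP-1 motif TGACTCA was present in 2.37% of members and 4.56% of shifted windows, the TEAD motif GGAATG in 11.97% and 16.3%, and the ETS motif CCGGAAG in 2.94% and 1.14%. All were searched on both strands.

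The p53 decamer itself was no more frequent in members than around them. It occurred in 75 members (7.12%), 99 shifted windows (9.40%), 7.03% of overlapping regions, 7.10% of WTOE regions and 6.63% of RefSeq promoters. In members with a −log10 q of at least 5 it occurred in 4 of 108 (3.70%). A pair of decamers with up to 13 bases between them, the form of a full p53 site, was in none of the 1053 members, in 1 overlapping region and in 9 of the 10228 WTOE regions. The letters searched are the consensus alone, and a site that departs from it is not counted.

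**Figure D4:**
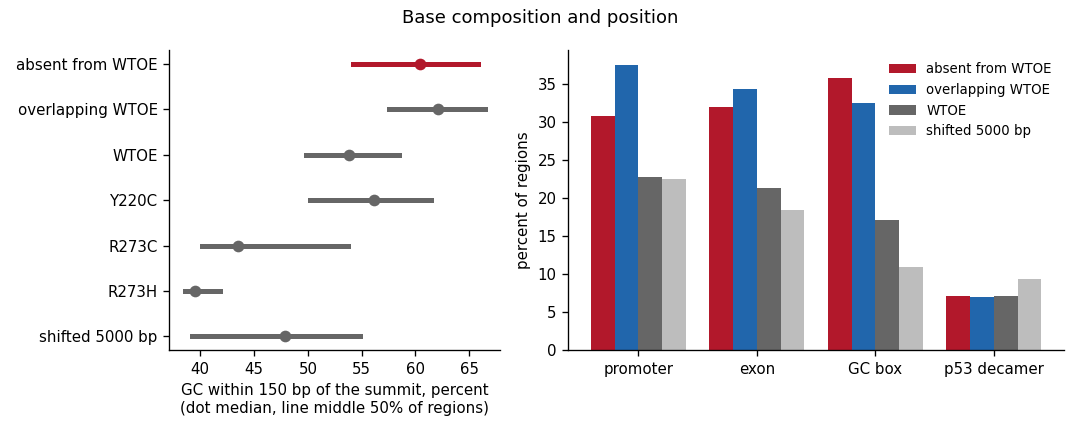
Left, GC percent within 150 bp of the summit for the Y234C regions absent from WTOE (red), the overlapping regions, the other 4 lists and the absent regions' windows shifted by 5000 bp, with the median as a dot and the middle 50% of regions as a line. Right, percent of regions at a promoter, on an exon, with a GC box and with the p53 decamer; the absent regions stand above their shifted windows in the first 3 and not in the decamer, at 7.12% against 9.40%.

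Classical p53 targets with a member in the promoter or body included BTG2, MDM2 and AEN, from a list of 34 genes of which 6 had a WTOE region. BTG2, which restrains cell division, had one on its coding exon at chr1:203307276-203307541, with a −log10 q of 4.71 and a fold of 4.22. MDM2, the ligase that degrades p53, had one in an intron at chr12:68810420-68810756, with 3.31 and 4.17. AEN, a nuclease induced by p53, had one 130 bp from its start at chr15:88621380-88621643, with 3.31 and 4.17. None of these was in another mutant's list, none held the decamer, and the nearest WTOE region was 4469, 33941 and 14387 bp away. MDM2 was itself among the 6 genes with a WTOE region in the promoter or body, whereas BTG2 and AEN were not.

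Of 19715 coding genes, 535 (2.71%) held a member in the promoter or body and 3650 (18.5%) a WTOE region, and the lists are to be read against these shares. STK3, the Hippo kinase MST2, was the 1 member-bearing gene of 27 in the Hippo list, with a −log10 q of 2.11 in an intron. ASAP1 and RBMS3 were the 2 of 22 YAP/TAZ targets, and ATF3, a stress-induced transcription factor, was the 1 of 12 immediate early genes. None of 14 basal epithelium genes and none of 8 metallothioneins had one. MT1L, a metallothionein pseudogene outside that list that was picked out after its values were seen, had a member in its promoter at chr16:56617270-56617541, with a −log10 q of 2.11, and its RNA was 7.98 in Y234C and 5.41 to 8.55 in the other 9 mutants. Among the cell type markers, 1 of 6 fibroblast genes, PDGFRB, had one. The 10228 WTOE regions lay on 8 Hippo genes, 9 YAP/TAZ targets, 2 immediate early genes and 4 basal epithelium genes. ASAP1 and RBMS3 were among those 9, and STK3 was not among the 8.

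Some genes held several members. A member lay in the body of 502 coding genes, and 73 of these had 2 or more. PLEC, the cytolinker plectin of epithelial cells, had 7 over 61.58 kb of chromosome 8, of which 4 touched coding sequence, with −log10 q from 1.34 to 6.79. ARHGAP39, a GTPase-activating protein, had 7, of which 1 was on an exon. TRIM11 had 4, all on exons, and TRAPPC9 had 4, all in introns. All members of PLEC, TRIM11 and TRAPPC9 were in no other mutant list. CCDC200, with the U2 array, had 5, and each of them was in at least 1 other list. RASA4 and the gene overlapping it had 4 with 2 to 4 placements each, which cannot be assigned to one copy. The protocadherin alpha genes, cell adhesion molecules that share their last exons, had 4, and the same regions are counted for each of PCDHA1 to PCDHA7. WTOE regions lay on the same genes, with 5 on PLEC, 8 on ARHGAP39, 6 on TRIM11, 39 on TRAPPC9 and 26 on CCDC200. RASA4 held 4 WTOE regions and PCDHA1 held 2. PLEC, ARHGAP39, TRAPPC9, TRIM11 and the protocadherin genes lie in the crowded stretches of chromosomes 1, 5 and 8.

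RNA, which the rule did not use, was taken from 1 library per line in the deposited log2(TPM+1). The Y234C library stood apart from most lines, and R273H shared part of this. Its 50 most abundant genes took 46.8% of all TPM, against 27.1% to 37.4% in the other 12 lines. The median level of the genes tested was 2.63, next to 2.85 in R273H and 3.47 to 3.85 in the other 11 lines, and the median difference of Y234C from the mean of the other 9 mutants was −0.87 over the 14884 genes tested. All differences below are to be read against that shift. Markers of basal mammary epithelium were all above 1, from 3.31 to 11.85 for 7 of 7, while 4 of 4 endothelial and 5 of 5 blood markers were at 0 and the highest of 6 fibroblast markers was at 1.26. Of 5 general epithelial markers 4 reached 1, with values from 0 to 7.98. Of 4 markers of luminal hormone receptor cells 2 reached 1, with values from 0 to 4.79. In a bulk library, fewer cells that express a gene and less RNA per cell cannot be told apart.

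Coding genes at the promoters of members and of WTOE regions had alike RNA levels. Of 191 coding genes with a member in the promoter and a value in the table, 111 (58.1%) reached a log2(TPM+1) of 1 in Y234C, with a median of 2.31, against 9268 of 19715 coding genes (47.0%), with a median of 0.41. In the library labelled WTOE, 63.4% of the same genes reached it, with a median of 3.20, against 50.8% of coding genes. Promoter genes of WTOE regions reached it in Y234C in 757 of 1264 (59.9%), with a median of 2.52. The 44 coding genes at the promoter of an overlapping region reached it in 38.6% and had a median of 0. Of the 50 most abundant RNAs of Y234C, 2 had a member in the gene. ARF1, a GTPase of vesicle budding, had one at chr1:228098779-228099043 on an exon outside the coding sequence, and ACTG1, cytoplasmic gamma actin, had one at chr17:81511881-81512349 on coding sequence. ARF1 had 12.05 in Y234C and 10.44 to 11.18 (median 10.79) in the other 9 mutants, a difference of 1.21 ± 0.53 (SE) with an adjusted p of 0.223 in limma. ACTG1 had 11.83 against 11.40 to 12.12 (median 11.50), within their range.

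Y234C RNA was compared with the mean of the other 9 mutants to ask whether genes at members moved in that line. A member lay in the promoter of 377 genes, of which 200 were coding, 95 long non-coding, 54 pseudogenes and 18 small RNAs. The RNA table held 335 of them, and 158 passed the filter on low values. In limma with Benjamini-Hochberg adjustment over all genes tested, 1 of the 158 was higher in Y234C (0.633%; 0.618% of all genes tested) and 0 were lower (1.24% of all genes tested). At an unadjusted p under 0.05, 6 were higher and 23 lower, as against 480 and 2603 of all genes. A fixed rule of size gave more. Above the range of the other 9 mutants and at least 1 log2 unit from their mean were 15 (9.49%; 6.25% of all genes tested), and below it 30 (19.0%; 25.6% of all genes tested). With each line centred on its median, a setting added after the data were seen, these became 35 (22.2%; 16.7% of all genes) above and 11 (6.96%; 8.90% of all genes) below, so that the split depends on the scaling. The median difference of the 158 was −0.62, that of promoter genes of WTOE regions −0.66, and that of all genes −0.87.

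AGAP3, a GTPase-activating protein of the Arf family, was the gene that passed. Its log2(TPM+1) was 8.11 in Y234C and 2.52 to 4.8 (median 4.20) in the other 9 mutants, with 5.26 in the library labelled WTOE, 4.06 in WT and 3.81 in WTKD, the line with p53 knocked down. Y234C was thus above every other line. The difference was 4.19 ± 0.88 (SE), with an adjusted p of 0.0391 in limma, and 1 library was set against 9, so the spread is that of the 9 alone. The member at chr7:151087173-151087555 had a −log10 q of 2.11 and a fold of 3.64, and lay 12252 bp from a WTOE region. It touched coding sequence inside the gene, which is annotated from 151085831 to 151144436. The adjusted p ranged from 0.00364 to 0.0711 over the settings, and the call was lost without G245S, H179R, R248W, R273C, Y163C or Y220C, where it lay between 0.0523 and 0.0637, and without the filter on low values, at 0.0711.

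These p53 targets lay within the range of the other mutants in RNA. MDM2 had 4.77 in Y234C against 4.34 to 6.43 (median 5.84) in the other 9 mutants, AEN 3.58 against 2.16 to 5.51 (median 3.91), and BTG2 2.21 against 0.16 to 3.66 (median 2.62). Adjusted p values in limma were 0.489, 0.815 and 0.841. ATF3 was listed at 0 in Y234C, R175H, R273H and R248Q and at up to 4.95 in the others, with an adjusted p of 0.523. Over all genes tested, 25.6% were below the range of the other 9 mutants in Y234C and at least 1 log2 unit from their mean. In WT, the parental cells, STK3 had 2.38, ASAP1 7.66 and RBMS3 2.01. In Y234C these genes had 2.74, 5.75 and 1.11. All 3 lay below the lowest of the other mutants, which was 3.82, 7.19 and 2.16, with adjusted p of 0.143, 0.0893 and 0.109 in limma. PLEC had 8.41, above the 6.52 to 8.25 (median 7.07) of the others, with an adjusted p of 0.341.

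Over whole lists, limma called none of 33 tested p53 targets (median difference −0.92, with 1 higher and 6 lower at an unadjusted p under 0.05), none of 22 YAP/TAZ targets (−1.15; 1 and 7), none of 12 immediate early genes (−0.78; 1 and 1), none of 14 basal epithelium genes (0.68; 1 and 0), 1 lower of 26 Hippo genes (−1.13; 1 and 10) and 1 higher of 6 metallothioneins (−0.50; 1 and 0). Over all genes tested the calls were 0.618% higher and 1.24% lower, with 480 and 2603 of 14884 at an unadjusted p under 0.05. The called ones were TAOK1, with −2.59 ± 0.56 (SE) and an adjusted p of 0.0417, and MT2A, with 3.06 ± 0.57 (SE) and an adjusted p of 0.0258. Neither had a member.

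**Figure D5:**
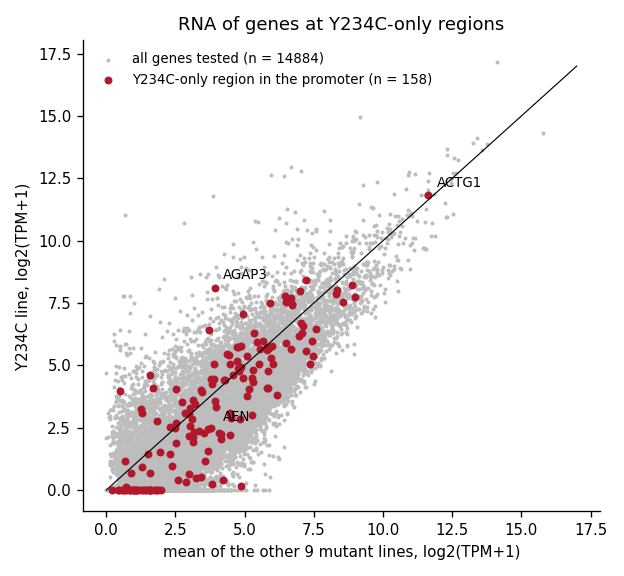
RNA of the Y234C line (vertical axis) against the mean of the other 9 mutant lines (horizontal axis), both in log2(TPM+1), for all 14884 genes tested (grey) and the 158 with a Y234C-only region in the promoter (red); the line marks equal values. Most genes of both kinds lie under the line, and AGAP3 stands above it at 8.11 against 3.91.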

How the data were processed

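V5 ChIP-seq peak lists of 5 lines and an RNA table of 13 lines were used, with 1 library per line. Per the labels and the study's methods, ChIP reads were placed on GRCh38 by the authors (Bowtie2 2.1.0), passed through SAMtools 1.7 and turned into peaks (MACS2 2.1.2.20181017) in paired-end mode at a q of 0.05 against input DNA of the same line. HOMER 4.9.1 output was not used. The deposited lists give the fold enrichment at each summit (a ratio of ChIP to background), its −log10 p and −log10 q, and a score of 10 times −log10 q. The authors aligned RNA reads with STAR and deposited log2 of TPM plus 1. By the study's account, duplication of RNA reads was high, and that of ChIP reads varied widely between libraries. Mitochondrial RNA, a large and variable part of the RNA reads, was dropped before TPM was computed. Depth per RNA library is unknown, and the study gives ChIP read totals as a range over libraries only, with none assigned to a line.

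Regions with the same coordinates were joined, keeping the summit of highest q. Positions came from GENCODE 44, with promoters of 2500 bp upstream to 100 bp downstream. Sequence came from GRCh38, with summit windows of 150 bp on both sides. Placements were alignments by minimap2 2.31-r1302 of 300 bp at 95% identity over 90% of the length, used in place of masked repeats. The ladder of folds allowed a deviation of 0.002. Genes that reached a log2(TPM+1) of 1 in 3 or more lines were tested with limma 3.58.1 in R 4.3.3, Y234C against the mean of the other 9 mutant lines, two-sided, adjusted by Benjamini-Hochberg. The lone library is assumed to vary like the 9. Tested on simulated data for that comparison over 14884 genes, it recovered 0, 0 and 97 of 200 planted genes at effects of 1, 2 and 4 on the log2 scale, with 0, 0 and 6 others called. The simulation planted upward shifts alone and gave Y234C no library-wide shift. The real library had a median difference of −0.87, so recovery in these data may differ. Of the genes in the table, 57208 (98.0%) matched the annotation. The other tools were samtools 1.23.1, pysam 0.24.0, matplotlib 3.10.9, scipy 1.17.1, pandas 2.3.3 and numpy 2.4.6 under Python 3.11.15.

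The members, gene lists and tests were chosen with earlier results of these data known. Named were the 10 members of highest −log10 q, the 5 leading in no and the 5 in most other mutant lists, the 3 nearest to each side of the rule, members on p53 targets, promoter genes that passed limma, the 10 coding genes with most members and genes with a member among the 50 most abundant RNAs. Genes with members on the other lists were added. The lists were p53 targets, Hippo, YAP/TAZ targets, basal epithelium, metallothioneins, immediate early genes and cell type markers. Peak overlap, window, threshold, pseudocount, filter, scaling and leave-one-out alternatives were tried. The study also used WT cells as a negative control for V5 ChIP, but the samples held no such library. Signal of the V5 antibody without a tagged protein could therefore not be checked at the members. Some results that these rules would name are not reported here.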

Additional observations from a re-analysis of the deposited data

Results flagged for a closer look

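Over the 10 mutant lines, 3 values of 10 named genes stood apart from the rest by Dixon's test, which flags about 1 in 20 groups by chance. AGAP3 and ARF1 were named for their RNA in Y234C, so their flags repeat that choice and the 3 cannot be set against the chance rate. AGAP3 was highest in Y234C at a log2(TPM+1) of 8.11, and ARF1 was highest in Y234C at 12.05. BTG2 was lowest in R273H, at 0.158. Among data that the comparisons did not use, the Y234C list held 171 regions on chromosome Y and unplaced scaffolds, of which 36 (21.1%) overlapped no WTOE region, with a median −log10 q of 2.82 and a highest of 89.7.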

How the results depend on the processing

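No paired analysis was possible because each line gave 1 library and the labels carry no replicate numbers. The number of members was 1117 where WTOE had to cover 50% of a region, 887 where a WTOE region within 1000 bp counted as shared, 771 at a −log10 q of at least 2 and 108 at 5, since fewer regions enter. The share at a promoter was 26.2% with the summit in the window and from 29.6% to 32.3% otherwise. The share on an exon was 20.4% with the summit on the exon, 24.7% for coding genes, 28.7% at a −log10 q of at least 5 and, in settings added after the data were seen, 36.0% for members placed once and 28.1% outside the 3 stretches. The decamer share was 2.28% within 50 bp, 3.70% at a −log10 q of at least 5 and 9.40% in shifted windows. The share in another mutant's list was 22% within 1000 bp and, in the added settings, 4.62% for members placed once and 26.2% outside the stretches. Over all genes, 92 were higher and 185 lower in Y234C RNA. The counts became 72 and 484 with a pseudocount of 0.1, 467 and 366 without the filter, 174 and 41 after quantile normalization, 121 and 478 with all 13 lines and, as an added setting, 223 and 30 after median centring. Leaving out 1 mutant gave 54 to 213 higher and 56 to 1525 lower, and the upper ends were those without R273H. Without G245S, H179R, R248W, R273C or Y163C, 54 to 60 were higher and 56 to 73 lower, and without Y220C 99 were lower. Among promoter genes, 1 higher and 0 lower became 1 and 1 with a pseudocount of 0.1 or all 13 lines, 2 and 3 without the filter, 2 and 0 after quantile normalization, median centring or with a window of 1000 bp on both sides, and 0 to 2 higher and 0 to 11 lower on leaving out 1 mutant, with 2 and 11 without R273H and 0 higher without G245S, H179R, R248W, R273C, Y163C or Y220C. The cause was not tested. AGAP3 kept its direction in all settings, from 4.02 to 5.2. With 12 to 17 fragments behind many members, a call turns on few reads, and the lists have no replicate.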
